A study of Mus musculus with 56 samples.

Results

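The comparison described here sets ribosome footprints of 3 kidney libraries against those of 4 others, chosen by the alphabetical order of their titles. When the 10 kidney footprint titles were sorted as text, 3m_2, 3m_3 and 3m_4 formed the last group, 20m_1, 20m_2, 20m_3 and 32m_1 the first group, and 32m_2, 32m_3 and 3m_1 the middle group between them, where each name gives the labelled age in months and the replicate number. The last and first groups hold 7 of the 28 footprint libraries and of the 56 libraries of the series. The grouping follows the idea of a label displacement, in which group sizes of 4, 3 and 3 would follow if libraries had been listed by rising age (3, 20 and 32 months) and the names added in text order. No age was assigned to any library on this ground, and whether labels were displaced was not tested.

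The series measured ribosome footprints and total RNA in liver and kidney of C57BL/6 mice of several ages, with both tissues taken from the same animals. All 7 libraries are kidney footprints, with no treatment and no genetic change named. The last group carries the label 3 months in all 3 libraries, while the first group carries the label 20 months in 3 libraries and 32 months in 1. The series describes 3 animals per age and 2 at 32 months, whereas kidney has 4 footprint libraries labelled 3 months and 3 labelled 32 months, so n counts libraries, may exceed the number of animals, and p-values measure only the spread between libraries.

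Ribosome profiling sequences the short stretches of messenger RNA that ribosomes protect from nuclease, so a footprint count reflects both how much of a transcript is present and how heavily it is translated. The kidney filters blood in glomeruli and returns most of the filtrate through the proximal tubule, which is rich in mitochondria and consumes fatty acids, while the distal tubule and collecting duct adjust salt, calcium and acid. Resident macrophages and, in some kidneys, infiltrating B and plasma cells lie between the tubules. Injured tubule cells are known to switch on repair genes and to release cytokines. Mouse kidney also differs between the sexes in many transporters and steroid enzymes under androgen control; the labels used here do not give the sex.

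Total counts ran from 13519655 to 18296261 in the last group, from 10388818 to 20085045 in the first group and from 10659589 to 30517983 in the middle group. Kidney markers were present in all 10 libraries, with the phosphate transporter Slc34a1 between 3470.5 and 8323 CPM (CPM is the count of a gene scaled by the library's total count). The library 3m_2 stood apart. Its correlation of log2 CPM with the other 9 libraries was 0.883 to 0.906, against 0.987 to 0.990 within the first group. Mitochondrially encoded genes made up 0.344% of its counts, against 2.02% to 3.54% in the others. The 10 genes with the highest mean CPM over the 10 kidney libraries held 18.7% of its counts, against 10.5% to 11.5%. Its summed proximal tubule markers reached 25213 CPM, against 55859 to 71957 CPM. The library 3m_4 held adrenal transcripts, with a summed level of 334 CPM over 9 adrenal genes, against at most 2.40 CPM in any other kidney library, and 42.2 CPM of the adrenal enzyme gene Cyp11b1. The summed level of 14 fat cell genes was 611 to 1370.3 CPM in the last group and 1541 to 2302 CPM in the first group. This sum includes Lpl, at 231 to 403 CPM against 688 to 768 CPM. It also includes Cd36, at 31.3 to 179 CPM against 338 to 439.8 CPM. The defining fat markers Adipoq and Plin1 overlapped between the groups. The pancreatic gene Prss1 was at 0 in all 10 libraries. The part of these features in the results below was not tested, and each main count is given with and without 3m_2.

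The last and first groups differed in a few percent of genes. Of 14621 genes tested with edgeR over all 10 libraries, 569 were called at an adjusted p under 0.05, which is 3.89% of them: 413 were higher in the last group (2.82%) and 156 were lower (1.07%). Without 3m_2, 1628 of 14839 genes were called (11%), with 967 higher (6.52%) and 661 lower (4.45%). The calls overlapped in 543 genes, 95.4% of the calls over all libraries and 33.4% of those without 3m_2, and all 569 kept their direction without 3m_2. Since the grouping was proposed with values of these libraries in view, these calls describe how the libraries separate and support nothing further. The number of calls rests on single libraries, and list counts are therefore given below with and without 32m_1 and 3m_4, the libraries with the fewest and most calls when left out. Without 32m_1, 0.26% of 14593 tested genes were called higher and 0.0959% lower, and without 3m_4, 9.25% of 14981 were called higher and 3.5% lower. The counts of members are to be read beside these shares and the ones over all libraries and without 3m_2. The ranges of the last and first groups did not overlap in 21.1% of all tested genes and in 566 of the 569 called ones, and the 12 highest and 12 lowest named genes were required to meet this, so a lack of overlap in a named gene is a description of its values. Leaving out 3m_4 gave 1910 calls, and leaving out 3m_3 gave 277, while 134, 148, 98 and 52 were left without 20m_1, 20m_2, 20m_3 and 32m_1. Under the labelled ages, the same edgeR model called 0 genes for 20 against 3 months (1981 genes at an unadjusted p under 0.05) and 0 for 32 against 3 months (632 genes). Without 3m_2 those comparisons called 255 genes and 1 gene. The fits share libraries, so their counts are set side by side only.

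**Figure D1:**
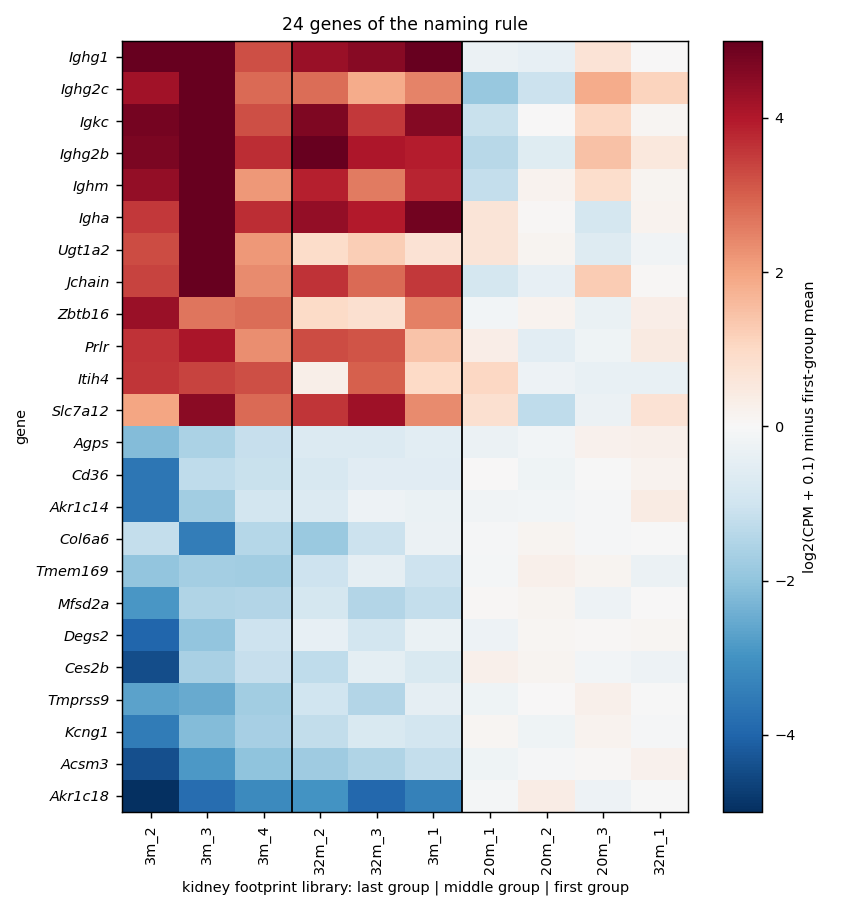
Footprint levels of the 12 highest and 12 lowest named genes (rows) in the 10 kidney libraries (columns: last, middle and first group), as log2(CPM + 0.1) minus the mean of the first group, with colours limited at 5 in either direction. By the rule that chose them, the upper rows are red in all 3 libraries of the last group and the lower rows blue. The middle libraries lie on the same side of the first-group mean in most rows.

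Antibody genes had the largest log2 differences of the named genes. These constant-region genes and the joining chain are translated in B and plasma cells. Of 19 tested members of a list of B and plasma cell genes, 8 were called higher and 0 lower, with a median log2 difference of 1.83, beside a median of 0.02 over all tested genes. Without 3m_2, 10 of 21 were called higher. Values below are in the order 3m_2, 3m_3, 3m_4 for the last group and 20m_1, 20m_2, 20m_3, 32m_1 for the first group.

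Igkc, the kappa light chain, had 190.3, 809 and 65.1 CPM in the last group, against 3.09, 6.90, 14 and 7.28 CPM in the first group, a log2 difference of 5.47 ± 0.83 (SE, n = 3 and 4). Ighm, the heavy chain of IgM, had 412, 1501 and 88.2 CPM in the last group, against 8.56, 22, 35.8 and 21.6 CPM in the first group, a log2 difference of 4.87 ± 0.85 (SE). Every library of the last group lay above every library of the first group in both genes, and 3m_3 was the highest by a wide margin. Igha, the heavy chain of IgA, had 32.9, 146 and 37.2 CPM in the last group, against 4.43, 2.89, 1.44 and 3.17 CPM in the first group, a log2 difference of 4.52 ± 0.56 (SE).

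Jchain, which joins IgA and IgM into polymers, had 26.6, 117 and 13.2 CPM in the last group, against 1.29, 1.85, 6.06 and 2.60 CPM in the first group, with a log2 difference of 4.15 ± 0.75 (SE). Ighg1 had 31.5, 30.8 and 2.15 CPM in the last group, against 0.0996, 0.0803, 0.289 and 0.144 CPM in the first group, a fitted log2 difference of 7.12 ± 0.94 (SE) that rests on very few counts in the first group. Ighg2b and Ighg2c, further IgG heavy chains, had log2 differences of 5.42 ± 0.85 and 5.80 ± 1.22 (SE). Genes of one antibody class are alike in sequence, and reads may have been split among them. The summed level of the B and plasma cell list was 228 to 2814 CPM in the last group, 26.5 to 77.0 CPM in the first group and 290.4 to 610.3 CPM in the middle group. In whole tissue, more cells of a type and more RNA per cell cannot be told apart. Without 32m_1, only 2 of the 19 members were called, and without 3m_4, 11 of 21.

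Trac, the constant chain of the T cell receptor, was at 1.86, 2.22 and 2.37 CPM in the last group and 1.19, 0.803, 1.25 and 1.30 CPM in the first group. Its log2 difference of 0.89 ± 0.25 (SE) was not called over all libraries (edgeR adjusted p = 0.0793) but was called without 3m_2 (adjusted p = 0.037). Of 13 tested T and NK cell genes 0 were called over all libraries (edgeR). Of 17 tested without 3m_2 Trac was the one called, beside 6.52% of all tested genes called higher. The count was 0 of 13 without 32m_1 and 4 of 17 higher without 3m_4, beside 9.25% of all tested genes without 3m_4. With DESeq2 over all libraries it was 2 of 17 higher, beside 993 of 17210 genes.

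Of 24 macrophage genes tested, 9 were called higher and 0 lower (median log2 difference 0.78), and 19 were called higher without 3m_2. Lyz2, lysozyme of macrophages and neutrophils, had 56.8, 87.6 and 42.5 CPM in the last group, against 28, 23.2, 25.1 and 20.8 CPM in the first group, a log2 difference of 1.33 ± 0.21 (SE). The genes of the C1q complex, which starts the classical complement pathway and is made by tissue macrophages, were all called. C1qb had 48.3, 45.2 and 29.1 CPM in the last group, against 20.3, 20.2, 15.2 and 15.4 CPM in the first group, a log2 difference of 1.18 ± 0.17 (SE). C1qa and C1qc were called in both fits, with log2 differences of 1.15 ± 0.18 and 1.22 ± 0.20 without 3m_2 (SE). Without 32m_1, edgeR called 0 of the 24, and without 3m_4 it called 10.

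Genes that present antigen to T cells had 3 of 17 members called higher over all libraries and 11 of 17 without 3m_2, with 0 lower in both. The count was 0 without 32m_1 and 7 without 3m_4. H2-Eb1, a chain of the class II molecule, had 157, 206 and 128 CPM in the last group, against 103, 94.5, 84.4 and 84.7 CPM in the first group, a log2 difference of 0.81 ± 0.15 (SE). H2-Ab1, another class II chain, had 98.3, 198 and 116 CPM in the last group, against 84.9, 76.2, 75.6 and 71.3 CPM in the first group. It was called only without 3m_2, at a log2 difference of 1.01 ± 0.15 (SE, edgeR adjusted p = 0.00212; 0.0566 over all libraries). H2-DMa and H2-DMb1, which load peptides onto class II molecules, had log2 differences of 1.02 ± 0.20 and 1.03 ± 0.23 (SE). These genes belong to a family of close copies, so their counts may share reads.

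Complement and acute phase genes had 3 of 16 members called higher, and 11 of 16 without 3m_2, with 0 lower in both, against 0 without 32m_1 and 4 without 3m_4. C3, the central complement component, had 354, 197 and 173 CPM in the last group, against 98.7, 84.2, 57.8 and 52.6 CPM in the first group, a log2 difference of 1.70 ± 0.27 (SE). Its middle libraries, with 75.7, 88.9 and 103 CPM in 32m_2, 32m_3 and 3m_1, lay near or within the range of the first group, unlike those of the antibody genes. C4b, which has a near-identical neighbour gene, had 66.7, 197 and 41.9 CPM in the last group, against 27.2, 20.9, 18.4 and 15.1 CPM in the first group, with 3m_3 far above the rest (log2 difference 2.28 ± 0.44, SE). Fgg, the gamma chain of fibrinogen, had a log2 difference of 2.05 ± 0.49 (SE) and C1ra, a protease of the C1 complex, one of 0.79 ± 0.20 (SE) that was called only without 3m_2. Itih4, an acute phase protein gene among the 12 highest, had 6.01, 5.18 and 4.66 CPM in the last group, against 0.946, 0.321, 0.289 and 0.288 CPM in the first group.

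Of 16 tested chemokine and adhesion genes, 4 were called higher, and 12 of 18 without 3m_2, 0 of 16 without 32m_1 and 7 of 17 without 3m_4. Cxcl16, a chemokine that is also a membrane-bound scavenger receptor, had 76.4, 78.9 and 57.6 CPM in the last group, against 48.1, 46.9, 49.7 and 42.8 CPM in the first group, a log2 difference of 0.57 ± 0.12 (SE). The B cell attractant Cxcl13 had 1.48, 2.29 and 1.86 CPM in the last group, against 0.0498, 0.562, 0 and 0.0721 CPM in the first group. The monocyte attractant Ccl2 and the adhesion molecule Selp had log2 differences of 2.56 ± 0.59 and 2.38 ± 0.50 (SE), and both lay at or below 2.15 CPM in every library of the last and first groups. Interferon response genes had 2 of 30 called higher in either fit, beside 2.82% of all tested genes over all libraries and 6.52% without 3m_2. Without 32m_1 the count was 0, beside 0.26% of all tested genes, and without 3m_4 it was 17, beside 9.25%. The 2 genes were Oasl1 and Oas2, which belong to the family of antiviral oligoadenylate synthetases, with log2 differences of 1.71 ± 0.37 and 2.78 ± 0.65 (SE). Both were highest in 3m_2, at 9.35 and 7.93 CPM.

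**Figure D2:**
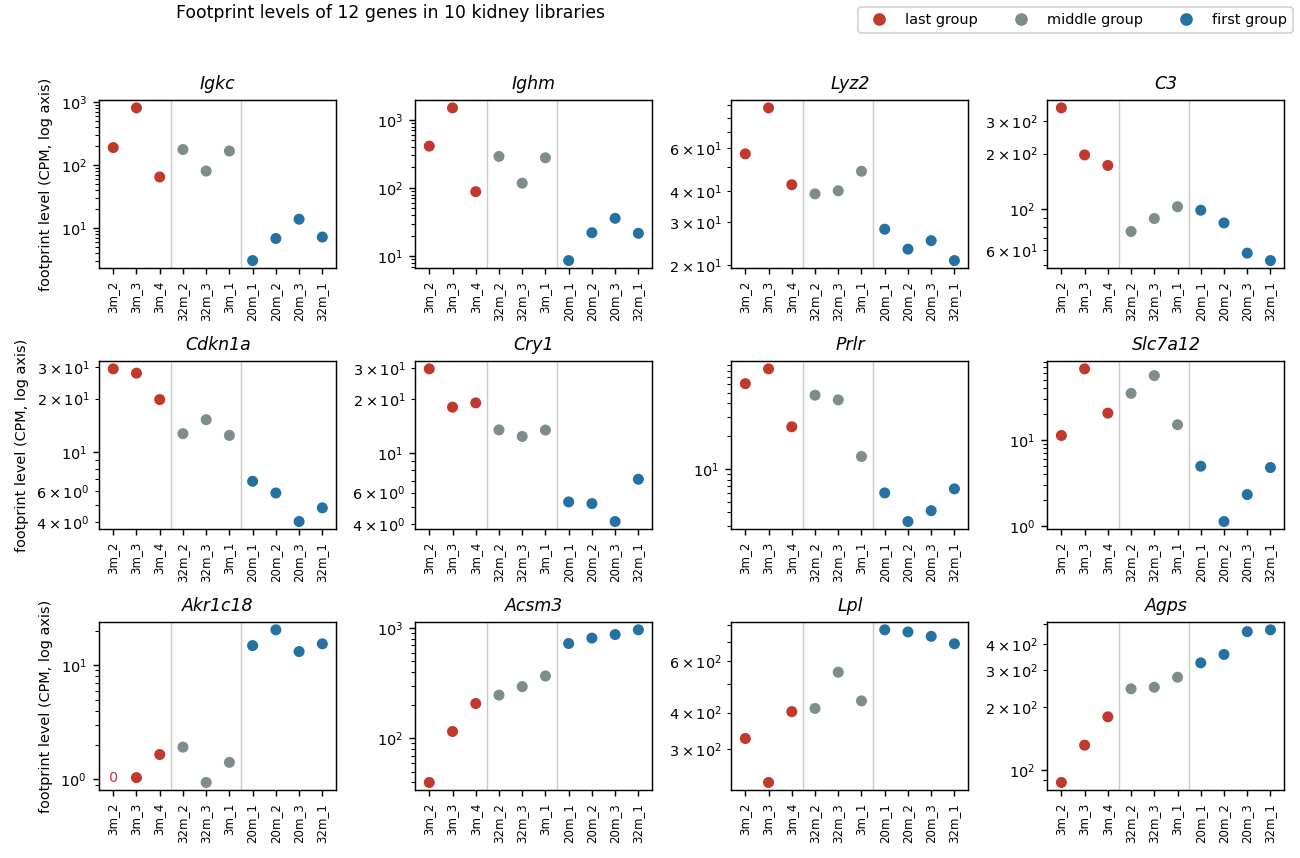
Footprint levels in CPM (log axis) of 12 genes, one panel each, in the 10 kidney libraries from the last group (red) over the middle group (grey) to the first group (blue). The genes were picked among those named for a difference between these groups. The middle libraries lie between the groups in Cdkn1a and beside the last group in Akr1c18. A red 0 marks the library in which Akr1c18 had no count.

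Cdkn1a, the cell cycle inhibitor p21 that responds to DNA damage, separated the groups with little spread. It had 29.4, 27.8 and 19.7 CPM in the last group, against 6.82, 5.86, 4.04 and 4.83 CPM in the first group, a log2 difference of 2.22 ± 0.19 (SE, edgeR adjusted p = 0.00368). The middle libraries, at 12.7, 15.2 and 12.4 CPM, lay between the 2 groups without overlap. A list of genes associated with senescence had 4 of 15 members called higher in both fits and 0 lower, with 2 higher without 32m_1 and 3 without 3m_4. Gdf15, a stress-induced cytokine, and Ccnd1, cyclin D1, were among them. Gdf15 had 17.5, 16.3 and 12.7 CPM in the last group, against 6.22, 7.14, 7.60 and 5.62 CPM in the first group (log2 difference 1.21 ± 0.15, SE). Ccnd1 had 580.2, 629 and 429 CPM in the last group, against 288, 341, 280.3 and 329 CPM in the first group (log2 difference 0.79 ± 0.16, SE).

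Tubule injury and repair genes had 5 of 18 members called higher, and 9 without 3m_2, 2 without 32m_1 and 5 without 3m_4. Lcn2, a lipocalin secreted by injured tubules and by neutrophils, had 9.13, 28.1 and 10.5 CPM in the last group, against 4.28, 1.77, 1.35 and 1.44 CPM in the first group, where 20m_1 stood above the other 3. Its log2 difference was 2.76 ± 0.55 (SE). Sox9, a transcription factor of regenerating tubule cells, had 3.44, 3.40 and 4.45 CPM in the last group, against 0.846, 1.20, 1.16 and 0.865 CPM in the first group (log2 difference 1.89 ± 0.26, SE). Vim, vimentin, which tubule cells gain on injury and mesenchymal cells always hold, had 123, 67.3 and 61 CPM in the last group, against 44.1, 42.9, 42.4 and 35.8 CPM in the first group. Lcn2 was also the one neutrophil gene abundant enough to be tested, of 9 listed.

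Of 30 matrix and fibroblast genes, 1 was called higher over all libraries, a share near the 2.82% of all tested genes. Without 3m_2, 6 were higher and 1 lower, beside 6.52% and 4.45% of all genes, and 0 were called without 32m_1 and 5 higher without 3m_4, beside 0.26% and 9.25%. The called gene was Col6a1, a chain of type VI collagen, with 96.6, 57.8 and 44.1 CPM in the last group, against 35.8, 32.9, 27 and 29.8 CPM in the first group (log2 difference 1.05 ± 0.22, SE). Of 29 cell cycle genes, 1 was called higher, again near the share of all genes, and 1 of 30 without 3m_2, beside 6.52%. The gene called over all libraries was Uhrf1, which maintains DNA methylation at replication (log2 difference 1.04 ± 0.22, SE). Among genes of kidney growth and development, 2 of 14 were called higher, the growth factor gene Igf2 (1.26 ± 0.24, SE) and the transcription factor gene Sox11 (2.32 ± 0.39, SE). Sox11 lay below 2 CPM in all 10 libraries. Without 3m_2, 3 of the 14 were called higher and 1 lower, beside 6.52% and 4.45% of all tested genes. Without 32m_1 no member of these 2 lists was called. Without 3m_4, 3 of 30 cell cycle and 4 of 14 growth genes were called higher, beside 9.25% of all tested genes.

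Of 20 clock genes tested, 4 were called higher and 0 lower. Without 3m_2, 7 were called higher and 1 lower, beside 6.52% and 4.45% of all tested genes. Without 32m_1 3 were called higher, and without 3m_4 7. Cry1, which represses the clock's own activators, had 29.6, 18 and 19.1 CPM in the last group, against 5.33, 5.22, 4.14 and 7.14 CPM in the first group, a log2 difference of 2.00 ± 0.22 (SE). Per2, a partner of the Cry proteins, had 134, 85.1 and 85.9 CPM in the last group, against 19, 33.1, 28.2 and 41.9 CPM in the first group, a log2 difference of 1.71 ± 0.27 (SE). In both genes the middle libraries lay between the groups, at 13.5, 12.4 and 13.4 CPM for Cry1. Cry2, the paralog of Cry1, had a log2 difference of 0.61 ± 0.14 (SE). The time of day at which animals were killed is not given in the sources used here.

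The promoters of Cry1 and Cry2 are shown because the clock drives its targets through E-boxes (CACGTG) and D-boxes (TTATGNAA). Sequences are RefSeq's for GRCm38.p6, 250 bases before to 50 after the start, 5′ to 3′ on the gene's strand, Cry1 from chr10:85185005-85185304 (minus strand) and Cry2 from chr2:92434020-92434319 (minus strand). Capitals mark the E-box.
Cry1: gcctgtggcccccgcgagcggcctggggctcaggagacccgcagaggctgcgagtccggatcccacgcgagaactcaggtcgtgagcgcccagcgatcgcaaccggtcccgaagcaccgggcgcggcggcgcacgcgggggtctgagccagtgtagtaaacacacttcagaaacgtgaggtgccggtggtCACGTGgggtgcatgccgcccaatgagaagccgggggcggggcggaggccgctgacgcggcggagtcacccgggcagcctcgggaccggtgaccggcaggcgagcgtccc
Cry2: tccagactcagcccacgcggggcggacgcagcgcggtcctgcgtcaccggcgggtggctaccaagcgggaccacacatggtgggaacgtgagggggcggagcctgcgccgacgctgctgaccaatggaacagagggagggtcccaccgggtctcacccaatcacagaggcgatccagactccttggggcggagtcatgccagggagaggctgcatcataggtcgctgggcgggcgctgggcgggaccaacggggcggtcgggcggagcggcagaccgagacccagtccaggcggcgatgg
Both strands were searched. The Cry1 promoter held 1 E-box, which begins 60 bases before the start, and no D-box, and the Cry2 promoter held neither. The table has a promoter for 5 of the clock genes called in either fit, and none for Per2 and Bhlhe40. Of the other 3 in the table, Per3 held 2 D-boxes and Nr1d1 and Hlf held neither motif. Among 32851 promoters of the same length, 7.15% held the E-box and 3.385% the D-box. A match describes the letters of this window and shows no binding.

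Immediate early genes had 3 of 19 members called higher, and 7 without 3m_2, 0 without 32m_1 and 7 without 3m_4. Myc, a transcription factor of cell growth, had 31, 14.3 and 14.2 CPM in the last group, against 7.07, 3.93, 4.24 and 3.75 CPM in the first group, a log2 difference of 2.03 ± 0.31 (SE). Its highest level was in 3m_2. The transcription factor genes Klf4 and Klf6 had log2 differences of 0.93 ± 0.21 and 0.56 ± 0.11 (SE). Zbtb16, a transcriptional repressor that also responds to glucocorticoids and was among the 12 highest genes, had 137, 43.4 and 47.1 CPM in the last group, against 6.07, 7.54, 5.29 and 8.51 CPM in the first group, with 3m_2 the highest again (log2 difference 3.44 ± 0.52, SE).

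Genes that differ between the sexes of mouse kidney or answer to androgen moved both ways, with 2 of 25 called higher and 4 lower, and 4 higher and 3 lower without 3m_2. Prlr, the prolactin receptor, had 60.7, 83 and 24.4 CPM in the last group, against 6.02, 3.29, 4.14 and 6.56 CPM in the first group, a log2 difference of 3.43 ± 0.50 (SE). Slc7a12, an amino acid transporter, had 11.2, 66.5 and 20.4 CPM in the last group, against 4.93, 1.12, 2.31 and 4.76 CPM in the first group, a log2 difference of 3.25 ± 0.68 (SE). Both are known as female-enriched in mouse kidney. Acsm3, a medium-chain acyl-CoA synthetase known as male-enriched there, had 39.9, 116 and 207 CPM in the last group, against 725, 811, 873 and 964 CPM in the first group, a log2 difference of −2.80 ± 0.48 (SE).

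Akr1c18, a steroid dehydrogenase that inactivates progesterone, had the lowest log2 difference of the named genes. It had 0, 1.04 and 1.65 CPM in the last group, against 14.9, 20.5, 13.2 and 15.4 CPM in the first group, a fitted log2 difference of −4.23 ± 0.67 (SE). The middle libraries were as low as the last group, at 1.91, 0.938 and 1.41 CPM. Akr1c14, a related dehydrogenase, had 7.11, 26.6 and 47.5 CPM in the last group, against 78.1, 80.8, 84.7 and 118 CPM in the first group, and was called only without 3m_2 (−1.28 ± 0.30, SE). Members of this family share sequence and may share reads. The other 2 called lower were Odc1, the first enzyme of polyamine synthesis, at −1.36 ± 0.32, and Rnf24 at −1.54 ± 0.36 (log2, SE); both lie outside the naming rule and were named after their values were seen. Without 32m_1, 1 member of the list was called higher and 0 lower, and without 3m_4, 3 were called higher and 12 lower.

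Of 23 genes of sterol and fatty acid synthesis, 2 were called lower and 0 higher, beside 1.07% and 2.82% of all tested genes. Without 3m_2, 3 were lower and 2 higher, beside 4.45% and 6.52%. Without 32m_1 0 were called, and without 3m_4 4 were lower, beside 3.5% of all tested genes. Idi1, an isoprenoid enzyme, had 3.39, 5.10 and 6.10 CPM in the last group, against 9.31, 11, 9.82 and 11.2 CPM in the first group (log2 difference −1.10 ± 0.27, SE). The other genes of this paragraph are in no list and were named as being among the 12 lowest. Agps, which makes ether lipids in peroxisomes, had 87.3, 132 and 179.6 CPM in the last group, against 325, 356, 458 and 467 CPM in the first group (log2 difference −1.61 ± 0.26, SE). Mfsd2a, a lysophospholipid transporter, had 6.23, 16.6 and 17.1 CPM in the last group, against 49.6, 52.4, 40.4 and 48.7 CPM in the first group (log2 difference −1.86 ± 0.32, SE). Degs2, a sphingolipid desaturase, had 5.36, 21.7 and 42 CPM in the last group, against 71.5, 92.3, 89.2 and 91.4 CPM in the first group, and was called only without 3m_2 (−1.42 ± 0.32, SE).

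Lpl, the lipase that frees fatty acids from lipoproteins, had 326, 231 and 403 CPM in the last group, against 768, 755, 729 and 688 CPM in the first group, a log2 difference of −1.21 ± 0.21 (SE). Cd36, which takes fatty acids up, had 31.3, 161 and 179 CPM in the last group, against 395, 338, 384 and 439.8 CPM in the first group. It was called without 3m_2, at −1.20 ± 0.12 (SE), but not over all libraries (edgeR adjusted p = 0.0806). Both stand in the list of 14 fat cell genes, of which 2 were called lower, Lpl and the hormone gene Lep, and 3 without 3m_2, 0 without 32m_1 and 4 without 3m_4. Lep had 0.109, 0.0740 and 0.359 CPM in the last group, against 2.34, 4.98, 1.25 and 1.66 CPM in the first group. The defining fat markers Adipoq and Plin1 overlapped between the groups, with 16.5, 2.07 and 25.7 CPM of Adipoq in the last group, against 49.2, 33.3, 20.0 and 12.7 CPM in the first group. Acadm, which opens the oxidation of medium-chain fatty acids, had 142, 304 and 359.9 CPM in the last group, against 609.5, 527, 486 and 658 CPM in the first group, and was called only without 3m_2 (log2 difference −0.78 ± 0.13, SE). Of 27 tested genes of fatty acid oxidation and ketogenesis, edgeR called 0 over all libraries. DESeq2 called 4 higher and 4 lower, beside 993 and 515 of 17210 genes. With edgeR without 3m_2, 2 were higher and 4 lower, beside 6.52% and 4.45% of all tested genes. Without 32m_1, 0 were called, and without 3m_4, 1 was higher and 6 lower, beside 9.25% and 3.5%.

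The remaining genes of the 12 lowest were Kcng1, a modulatory potassium channel subunit, Tmprss9, a serine protease, Ces2b, a carboxylesterase, Tmem169, a membrane protein, and Col6a6, a collagen VI chain. Tmem169 had 2.51, 3.11 and 3.01 CPM in the last group, against 9.51, 12.2, 11.2 and 8.29 CPM in the first group, with the smallest SE of the 5 (log2 difference −1.85 ± 0.22, SE). Kcng1 and Tmprss9 had log2 differences of −2.34 ± 0.37 and −2.33 ± 0.33 (SE). Ces2b (−1.39 ± 0.22, SE) and Col6a6 (−2.18 ± 0.53, SE) were called only without 3m_2. Among the 12 highest, Ugt1a2, a glucuronosyltransferase of a locus whose transcripts share exons, had 5.63, 26.1 and 2.58 CPM in the last group, against 0.846, 0.562, 0.289 and 0.432 CPM in the first group.

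Among segment markers of the distal nephron, members called in the collecting duct list were all lower: 1 of 16 over all libraries and 6 without 3m_2, against 0 without 32m_1 and 2 without 3m_4. Atp6v0d2, a proton pump subunit of acid-handling intercalated cells, had 7.27, 10.9 and 7.17 CPM in the last group, against 15, 16.5, 14.9 and 12.9 CPM in the first group, a log2 difference of −0.84 ± 0.17 (SE). Slc26a4, pendrin of the bicarbonate-secreting intercalated cells, had 72, 35 and 48.3 CPM in the last group, against 83.7, 90.8, 85.7 and 94.7 CPM in the first group, and was called without 3m_2 (−1.09 ± 0.20, SE). In the distal and connecting tubule list 1 of 9 was called lower, 4 without 3m_2 and 0 without 32m_1. Without 3m_4, 4 were lower and 1 higher, beside 3.5% and 9.25% of all tested genes. Calb1, which carries calcium across the cell, had 138, 139.9 and 162 CPM in the last group, against 212, 309, 231 and 207 CPM in the first group, a log2 difference of −0.72 ± 0.17 (SE). Pvalb, another calcium binder, was called without 3m_2 (−1.06 ± 0.26, SE). The kidney markers Slc12a3 and Aqp2 overlapped between the groups and were called neither over all libraries nor without 3m_2. Their log2 differences over all libraries were 0.28 ± 0.16 and −0.16 ± 0.25 (SE).

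Proximal tubule markers had 0 of 29 called over all libraries with edgeR, while DESeq2 called 2 of 28 lower, beside 515 of 17210 genes. With edgeR without 3m_2, 2 were higher and 2 lower, beside 6.52% and 4.45% of all tested genes. The count was 0 without 32m_1 and 5 lower without 3m_4, beside 3.5% of all tested genes lower without 3m_4. Slc34a1 had 3470.5, 7017 and 8323 CPM in the last group and 7326, 7492, 7330.2 and 7583 CPM in the first group, with 3m_2 the lowest of the 7. Dnase1, a secreted endonuclease, had 165, 1601 and 2536 CPM in the last group and 677, 488, 891 and 819.5 CPM in the first group, so that 3m_2 was lowest and 3m_3 and 3m_4 highest of the 7. Its log2 difference was 1.00 ± 0.64 over all libraries (SE, adjusted p = 0.338) and 1.53 ± 0.27 without 3m_2 (SE, adjusted p = 0.0111). Keg1, named for its expression in kidney, and Klk1, a kallikrein protease, were lower without 3m_2, at −0.68 ± 0.13 and −0.80 ± 0.14 (SE). Klk1 also stands in the distal and connecting tubule list, so its call counts in both lists. Umod, which marks the loop of Henle, overlapped between the groups, with 2181, 7087 and 4647 CPM in the last group and 4869.8, 3712, 4216 and 4575 CPM in the first group.

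Of 43 ribosomal protein genes 1 was called higher, Rps7 (log2 difference 0.50 ± 0.11, SE), beside 2.82% of all tested genes, and 7 were higher without 3m_2, beside 6.52%. Of 53 nuclear genes of oxidative phosphorylation 0 were called over all libraries (edgeR) and 1 was lower without 3m_2, beside 4.45% of all genes. Of 31 proteasome genes 1 was called lower, Psmd1 (log2 difference −0.75 ± 0.17, SE), beside 1.07% of all genes, and 2 were lower without 3m_2, beside 4.45%. Without 32m_1, 0 genes of the 3 lists were called. Without 3m_4, 3 ribosomal protein genes were higher, beside 9.25% of all genes, and 4 proteasome genes lower, beside 3.5%.

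Liver-enriched genes had 4 of 9 members called higher in the last group, 4 of 10 without 3m_2, 0 of 9 without 32m_1 and, with 1 lower, 4 of 9 without 3m_4. Alb, serum albumin, had 22.7, 67.6 and 126 CPM in the last group, against 16.1, 14.1, 16.3 and 9.23 CPM in the first group, a log2 difference of 2.38 ± 0.48 (SE). Apoa1, an apolipoprotein, had 10.5, 6.51 and 11.2 CPM in the last group, against 1.89, 1.61, 0.866 and 0.865 CPM in the first group, a log2 difference of 2.81 ± 0.43 (SE). Serpina1a, one of several near-identical antitrypsin genes, and Cps1, the first urea cycle enzyme, had log2 differences of 2.34 ± 0.36 and 3.07 ± 0.67 (SE). The summed level of the list of 10 was 472 to 2214 CPM in the last group and 1844 to 2199 CPM in the first group, with no member at 0 in all libraries. Each of the 4 called members lay at or below 18.1 CPM in the first group. Other members made up most of this sum, so it does not describe the called ones.

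**Figure D3:**
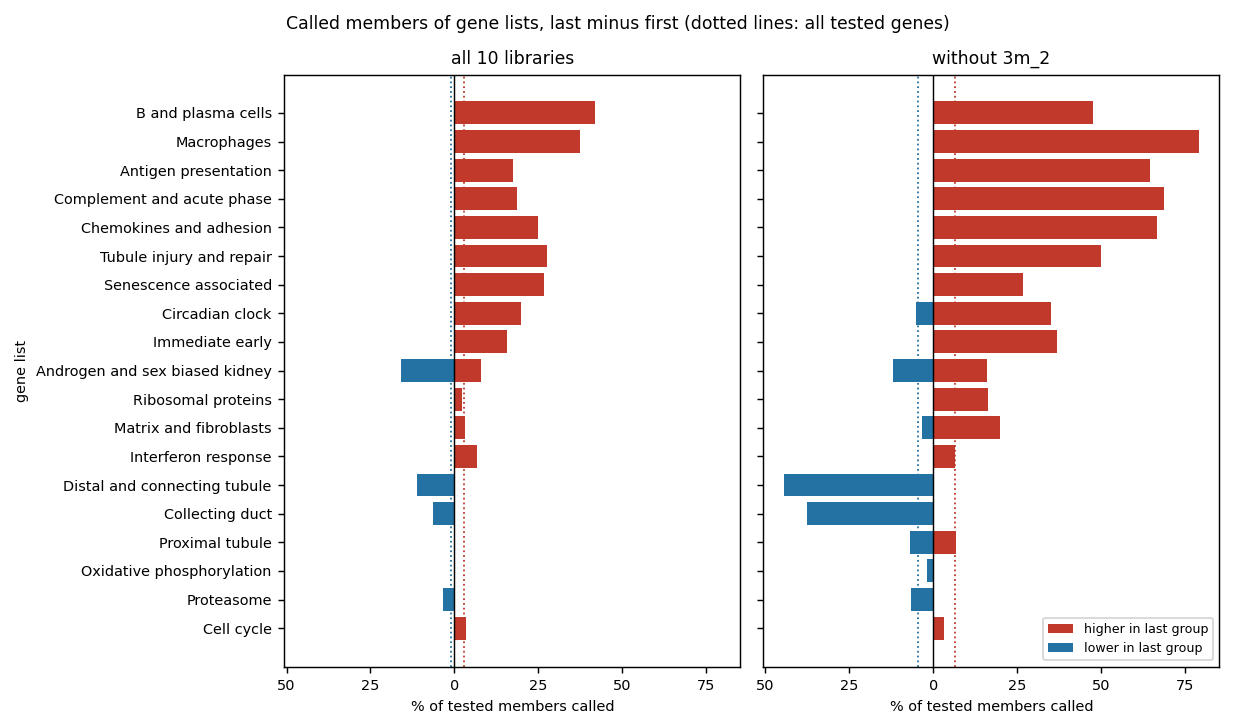
Share of tested members called in each of 19 gene lists, last minus first group, over all 10 libraries (left) and without 3m_2 (right). Red bars run right for members higher in the last group and blue bars run left for members lower, in percent, and dotted lines give the same shares over all tested genes. The immune lists carry red bars only, and the 2 lists of distal nephron segments blue bars only.

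The 3 middle libraries stand in neither group, but they shared the fit, so they helped set the spread behind the calls, and their values were known when the grouping was proposed. Their levels are therefore a description and no independent evidence. With the first and last groups alone in the fit, 60 genes were called. For each called gene, the place of a library was set at 0 for the mean of the first group and 1 for the mean of the last. Over the 569 called genes the median place was 0.54 for 32m_2, 0.58 for 32m_3 and 0.57 for 3m_1, beside 0.26, 0.34 and 0.28 over all tested genes. With the calls and means made without 3m_2 the medians were 0.58, 0.64 and 0.60, close to the 0.52, 0.67 and 0.57 over all tested genes. The log2 CPM of 3m_1 correlated at 0.987 to 0.991 with 32m_2 and 32m_3, and at 0.984 with 3m_3 and 3m_4.

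Each library of the compared groups was also placed with genes called in a fit that left it out. Every such place has its own set of genes and its own group means, so the places are not compared with each other. The values of these libraries were known when the grouping was proposed, so a place near the own group is no independent evidence. Places over all tested genes were not computed for them. The library 32m_1 had a median place of 0.08 over 52 genes, and of 0.01 over 1059 genes where 3m_2 was left out too. The medians were 0.14 for 20m_1 (134 genes), 0.12 for 20m_2 (148 genes) and −0.05 for 20m_3 (98 genes). In the last group they were 1.02 for 3m_2 (1605 genes), 0.83 for 3m_3 (276 genes) and 0.36 for 3m_4 (1853 genes), the last of these at 0.51 over 1651 genes where 3m_2 was also left out. The log2 CPM of 32m_1 correlated at 0.988 to 0.990 with the libraries labelled 20 months, and at 0.982 to 0.984 with the others labelled 32 months. The correlations of 3m_4 were 0.978 to 0.980 with the first group and 0.984 to 0.986 with the middle group. The correlations share libraries and depth and are descriptions.

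Liver footprints were compared in libraries that the kidney grouping did not use, though the series states that both tissues came from the same mice. Libraries labelled 3 months sort last among the liver titles and those labelled 1 month second, the places that 32 and 3 months hold in a list of the 6 stated ages, which is why this pair was taken. They are called here by their labels, and earlier results on liver were known when the pair was chosen. Liver labelled 3 months against liver labelled 1 month had 1674 of 13608 genes called (12.3%), 1211 higher (8.9%) and 463 lower (3.4%), n = 3 each. Leaving out single libraries moved the count widely: it was 941, 571 and 224 without replicate 1, 2 or 3 of the label 1 month, and 331 and 3240 without replicate 1 or 3 of the label 3 months.

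Of the 413 genes higher in kidney, 343 were tested in liver, and 157 of them (45.8%) were also called higher there, beside 8.9% of all genes tested in liver, while 1 was lower, with a median log2 difference of 1.15. Of the 156 genes lower in kidney, 114 were tested in liver, 16 were also called lower (14.0%), beside 3.4% of all genes, and 8 were higher. For the genes called higher in kidney without 3m_2, 841 were tested in liver. There 292 (34.7%) were called higher and 6 lower, with a median log2 difference of 0.70. For those called lower without 3m_2, 565 were tested in liver, where 73 (12.9%) were called lower and 31 higher. Igkc had 292, 83.2 and 12.7 CPM in liver labelled 3 months, against 3.01, 2.28 and 0.844 CPM in liver labelled 1 month (log2 difference 5.74 ± 1.16, SE). Cdkn1a had 46.6, 6.76 and 3.80 CPM in liver labelled 3 months, against 2.33, 0.897 and 0.703 CPM in liver labelled 1 month (log2 difference 3.63 ± 0.81, SE). In both genes the liver groups did not overlap. Macrophage genes had 23 of 24 members called higher in liver, and Lyz2 a log2 difference of 2.42 ± 0.39 (SE). Cry1 and Per2 were called higher in liver too, at 1.32 ± 0.40 and 1.19 ± 0.34 (SE).

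A test of the difference between the kidney and the liver comparison in 1 model called 428 of 15676 genes (2.73%), 131 with the higher value in kidney (0.836%) and 297 with the lower one (1.89%). Without 3m_2 it called 389 of 15993 genes (2.43%). Of the 413 genes higher in kidney, 46 differed between tissues, and of the 156 lower ones 33. The kidney libraries that selected these genes also enter this test, so shares above the 2.73% of all genes would follow from the selection. These counts are a description. Genes of the complement and liver lists are among them: C4b had a log2 difference of 2.28 ± 0.44 in kidney and 0.19 ± 0.24 in liver (SE), and Apoa1 had 2.81 ± 0.43 and −0.42 ± 0.25 (SE). Sox9 had 1.89 ± 0.26 in kidney and −0.27 ± 0.36 in liver (SE). Prlr was higher in both, by 3.43 ± 0.50 in kidney and 1.06 ± 0.28 in liver (SE). Cd36 had −1.66 ± 0.47 in kidney, not called over all libraries, and was called higher in liver, at 1.49 ± 0.32 (SE). Atp6v0d2 had −0.84 ± 0.17 in kidney and 3.38 ± 0.59 in liver (SE), and both were called. For Igkc and Cdkn1a the test of the difference gave adjusted p-values of 0.949 and 0.369 (edgeR), which does not show that the tissues were alike.

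**Figure D4:**
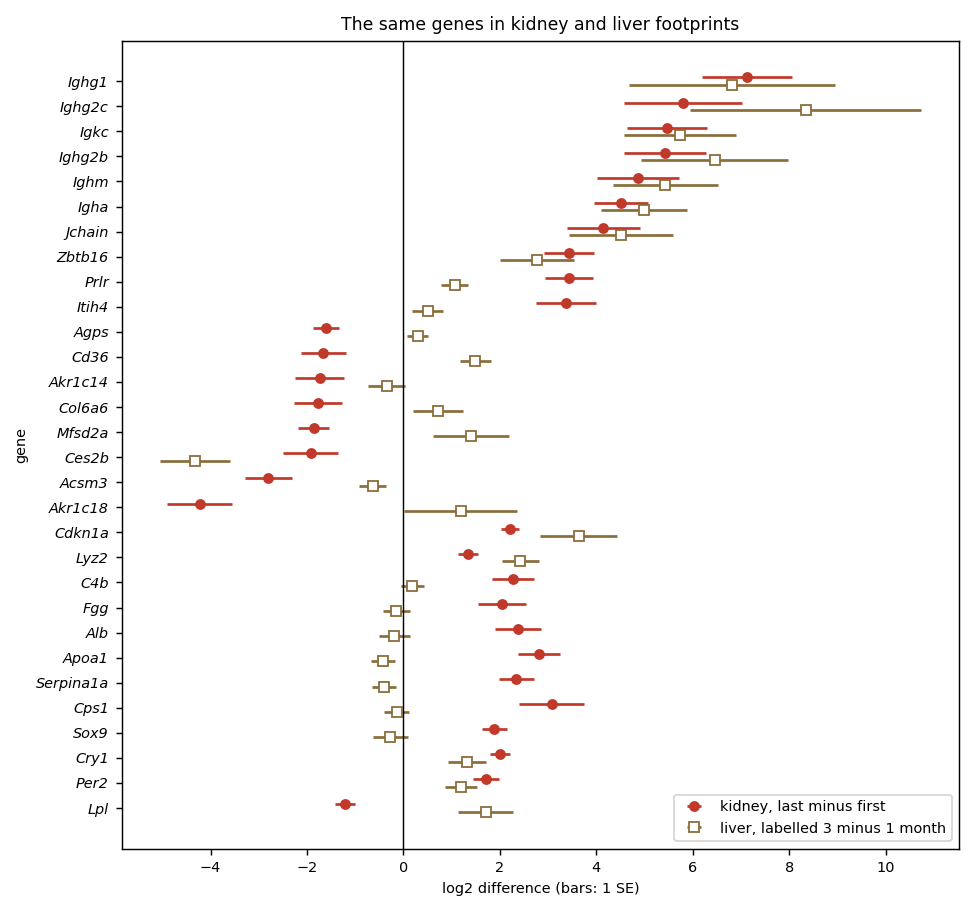
Log2 differences with 1 SE of 30 genes in kidney (last minus first group, red circles) and in liver (labelled 3 minus 1 month, open squares). The antibody genes, Cdkn1a, Lyz2, Cry1 and Per2 lie right of 0 in both tissues. The complement gene C4b, the fibrinogen gene Fgg, Sox9 and the liver-enriched genes lie right of 0 in kidney and close to 0 in liver, and Lpl and Cd36 lie left of 0 in kidney and right of it in liver.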

How the data were processed

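Footprint and RNA libraries came from one lysate each, per the labels' protocols. The authors deposited whole-number counts for each gene, not normalized, in 1 table per library. The submitters' processing notes name Cutadapt 1.14, STAR 2.5.3 and build mm10, while the counting tool and annotation are not given in the sources used here. Of 50222 gene identifiers, 49998 had a symbol and 136 shared one.

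The 10 kidney footprint libraries were fitted together in 3 groups with edgeR 4.0.16 in R 4.3.3 (TMM, filterByExpr with a minimum count of 10, robust quasi-likelihood F test, two-sided, Benjamini-Hochberg at 0.05 over all tested genes). The SE was taken from the F statistic (the size of the log2 difference over the root of F), and CPM uses total counts. Places and correlations use log2 CPM with a prior count of 2. The kidney test of last against first group was also run on simulated counts, in which no library stood apart as 3m_2 does. The liver test and the test of the difference between tissues were not simulated. Total counts started at 10388818 per kidney library, so genes below 1 CPM rest on few counts. No 2 kidney libraries agreed within sampling noise (lowest chi-square per gene 7.51).

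The grouping, the 40 gene lists and the liver comparison were chosen with earlier results of these data known. Named genes were the 12 highest and 12 lowest of 949 eligible (called in either fit, same sign in both, a mean of at least 5 CPM in the higher group, ranges that do not overlap), without 31 gene models and variable segments. Ranges did not overlap in 21.1% of tested genes. Up to 4 called genes per list were eligible too. Which of these are printed, the places of left-out libraries and list counts without 3m_4 or 32m_1 were chosen after seeing the data. Replicate numbers did not pair libraries: deviations of same-numbered libraries correlated at −0.197 to 0.132 over 8 pairs, with 1 above 0.1. Alternatives were DESeq2 1.42.0, other scalings and filters, the compared groups alone, a replicate block and each library left out. RNA libraries were not used here, and some genes are not reported here.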

Additional observations from a re-analysis of the deposited data

Results flagged for a closer look

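Of 80 genes screened, 7 had 1 library of the first group far from the other 3, where chance flags about 1 group in 20. Such values were 118 CPM of Akr1c14 in 32m_1, 34.6 CPM of Cry2 in 20m_3 and 0.562 CPM of Cxcl13 in 20m_2. The library 20m_1 was the one apart in 4 genes, with 71.5 CPM of Degs2 as the lowest value of the group and 0.946 CPM of Itih4, 4.28 CPM of Lcn2 and 7.07 CPM of Myc as the highest.

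For 16 of these genes the test of the difference between tissues (kidney last minus first, minus liver labelled 3 minus 1 month, edgeR) was below an adjusted p of 0.05. Many of the genes were named for a kidney difference in libraries that this test reuses, so the count of 16 is a description. The log2 difference between tissues was positive for Alb (2.51), Apoa1 (3.18), Serpina1a (2.70), Cps1 (3.16), Fgg (2.14), C4b (2.04), Itih4 (2.80), Prlr (2.32), Sox9 (2.11), Star (5.46) and Ugt1a2 (5.41). Star, which carries cholesterol into mitochondria of steroid-making cells, was at 2.13, 0.666 and 57 CPM in the last group and 0.299, 0.562, 0.578 and 0.721 CPM in the first group, so that its value rests on 3m_4, the library with adrenal transcripts. Ugt1a2 was not tested in the fit of liver alone. The difference was negative for Acsm3 (−2.21), Agps (−1.96), Atp6v0d2 (−4.27), Cd36 (−3.22) and Lpl (−2.97). In kidney, the ranges of the last and first groups overlapped for Star. For the other genes with a positive difference, all 3 libraries of the last group lay above the first group. All 3 lay below it for the genes with a negative difference.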

How the results depend on the processing

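The number of genes called between the last and first groups moved with the processing more than their direction did. Over all libraries it was 569, and 1508 with DESeq2, 351 with a minimum count of 50, 60 in a fit of the 2 groups alone, and 52 to 1910 when single libraries were left out. Without 3m_2 it was 1628, and 609 to 1760 when another library was left out. With the replicate number as a block the counts were 327 and, without 3m_2, 958, although the numbers showed no pairing. As labelled, 20 against 3 months gave 0 calls and 255 without 3m_2, and 32 against 3 months gave 0 and 1. The liver count of 1674 ran from 224 to 3240 when single libraries were left out. In these cases the cause was not tested, apart from there being fewer genes or libraries in the fit.

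For 80 named genes and 1027 alternatives, 718 kept their direction and their side of the threshold, 268 lost their call, 37 gained one and 4 reversed. The reversals were in genes not called over all libraries: Dnase1 (−0.14 with the replicate block), Umod (−0.0663 with the block, and −0.33 to 0.42 when single libraries were left out, the lowest without 3m_3) and Slc34a1 (−0.56 to 0.0448, the highest without 3m_2). Genes below about 1 CPM, such as Selp and the IgG chains in the first group, rest on few counts.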
